A study of Homo sapiens with 3 samples.

Results

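The genes described here are 10 genes of arginine, polyamine and GABA metabolism in Rh-30 cells, out of 19775 genes named by the array's annotation. They are ASS1, ASL, ARG2, OAT, ODC1, SLC7A1, ABAT, ALDH5A1, GAD1 and ALDH4A1, and 21 probe sets of 54675 were paired with them. ASS1 and ABAT were put among the 10 because of their lower level after knockdown of PAX3-FOXO1, so their values in that comparison are a description and support nothing. Rh-30 is an established alveolar rhabdomyosarcoma line with a PAX3-FOXO1 fusion. The cells were transfected with an siRNA against the fusion site of PAX3-FOXO1 (siPF), an siRNA against B7-H3 (siB7-H3) or a control siRNA (siCont), each at 5 nM, and total RNA was taken 24 h later. All 3 conditions shared the same line, medium and lipid transfection, and each knockdown rested on a single siRNA. Each condition was hybridized to 1 GeneChip U133 Plus 2.0 array, 3 in all, so there was no replicate error and no test between conditions was possible. Every difference below lies between 2 arrays.

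Arginine is made from citrulline in a pair of steps, by ASS1 and then ASL, and is taken up from the medium by carriers such as SLC7A1. Arginase splits arginine into urea and ornithine. Ornithine then feeds either the polyamines, through ornithine decarboxylase (ODC1), or glutamate and proline, through ornithine aminotransferase (OAT). ALDH4A1 acts on the route to glutamate. Glutamate is also the source of GABA, which GAD1 makes and which ABAT and ALDH5A1 break down to succinate in mitochondria. Many tumours have low ASS1 and then depend on arginine from outside, and polyamines are needed for growth.

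The lowest and highest 2% of probe sets aside, the mean intensity was 500.1 on all 3 arrays, and their medians lay between 70.6 and 71.7. CD276, which encodes B7-H3, gave an intensity of 1381 in siPF, 362 in siB7-H3 and 1486 in siCont. FOXO1, the downstream partner in the fusion, gave 249 in siPF, 650.0 in siB7-H3 and 678 in siCont at its brightest probe set. Its next probe set gave 88.4 in siPF, 373 in siB7-H3 and 358 in siCont. PAX3, the upstream partner, changed less, with 329 in siPF, 398 in siB7-H3 and 381 in siCont at its brightest probe set. The next gave 194 in siPF, 154 in siB7-H3 and 233 in siCont. Whether a probe set of FOXO1 or PAX3 reads the fusion or the normal transcript was not determined. Of 7 muscle markers (MYOD1, MYOG, MYF5, DES, CHRNA1, CDH15 and CHRND), all 7 reached the 60th percentile of probe sets on every array. They did not move one way: in siPF, 5 of the 7 were above siCont and 2 below. MYOG, the gene of myogenin, was the furthest above, with 3386 in siPF, 1269 in siB7-H3 and 605 in siCont. MYF5, another muscle regulatory factor, was the furthest below, with 213 in siPF, 342 in siB7-H3 and 415 in siCont. MYOD1 had 8688 in siPF, 13046 in siB7-H3 and 11471 in siCont. The part of these markers in the values below was not tested. Of 7 measured markers of other cells, 1 did, the endothelial gene PECAM1, whose intensity was 621 to 910.1. The part of other cells was likewise not tested.

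Sequence upstream of the genes was read from RefSeq promoter windows of GRCh38.p14, which hold 250 bases before and 50 after an annotated transcript start. All 10 genes matched, with 16 starts. Windows of ASS1, ODC1 and ABAT are shown, because ASS1 and ABAT had a lower signal in siPF and ODC1 was nearly level, while ASS1 and ODC1 shared a motif. CACGTG, the E-box letters bound by MYC and related factors, was searched on both strands, which read the same. It was found in 7.26% of 35116 promoter windows and, of the 10 genes, in ASS1 and ODC1. ASS1 and ODC1 each had 2 annotated starts, and in each gene the window of 1 of them held it. In ASS1 it began 71 bases before that start, and in ODC1 it occurred 29 bases before and 5 bases after that start. GTCACG, the core letters of PAX paired-domain sites, was searched on both strands and was found in 9.02% of all windows. It was found in ARG2 and in ABAT, where it lay in 2 overlapping windows out of 4. Another motif of PAX proteins, a paired homeodomain site, was also searched. It was found in 0.365% of all windows and in 0 of the 16 windows of the 10 genes. No window of the 10 genes held both CACGTG and GTCACG, and a match is a description of letters only. For each gene a window that held the motif is shown, and capitals mark CACGTG in ASS1 and ODC1 and GTCACG in ABAT.
ASS1, chr9:130444711-130445010, plus strand: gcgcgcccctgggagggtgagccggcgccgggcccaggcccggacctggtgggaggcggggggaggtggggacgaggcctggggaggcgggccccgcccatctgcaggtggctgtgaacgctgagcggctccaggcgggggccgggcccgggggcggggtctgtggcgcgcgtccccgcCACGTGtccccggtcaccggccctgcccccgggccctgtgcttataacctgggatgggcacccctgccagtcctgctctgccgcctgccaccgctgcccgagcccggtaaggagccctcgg
ODC1, chr2:10447963-10448262, minus strand: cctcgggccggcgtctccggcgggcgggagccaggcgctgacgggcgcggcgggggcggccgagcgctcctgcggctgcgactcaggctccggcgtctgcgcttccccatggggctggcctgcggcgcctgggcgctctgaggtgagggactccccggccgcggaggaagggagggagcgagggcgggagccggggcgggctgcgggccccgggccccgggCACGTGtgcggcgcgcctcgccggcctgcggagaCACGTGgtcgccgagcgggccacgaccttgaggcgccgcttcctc
ABAT, chr16:8712699-8712998, plus strand: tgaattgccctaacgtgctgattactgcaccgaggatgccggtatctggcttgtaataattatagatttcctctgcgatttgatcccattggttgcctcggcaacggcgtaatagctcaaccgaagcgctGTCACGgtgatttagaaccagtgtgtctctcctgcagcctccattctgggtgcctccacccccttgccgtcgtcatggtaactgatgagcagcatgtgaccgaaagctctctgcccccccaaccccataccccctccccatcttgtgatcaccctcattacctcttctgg
CAGCTG, an E-box of muscle regulatory factors, was found in 17.9% of all windows and in 1 window each of ABAT and ALDH4A1. TGATGNAA, letters of the amino acid response element, was found in 3.62% of all windows and in SLC7A1.

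ASS1 and ASL, the enzymes that make arginine, were both lower in siPF, ASS1 far more than ASL. ASS1, which joins citrulline and aspartate to argininosuccinate, had an intensity of 1172 in siPF, 4762 in siB7-H3 and 5095 in siCont. The siPF array stood apart from the other two, at 23.0% of siCont, whereas siB7-H3 was at 93.5%. The log2 difference to siCont was -2.12 in siPF and -0.097 in siB7-H3. ASS1 has 1 probe set on this array, of the _s_at kind, which can bind several transcripts, and RefSeq lists 14 symbols of ASS1 pseudogenes. Whether transcripts of these contributed to the signal was not tested. ASL, which releases arginine from argininosuccinate, had 400 in siPF, 487 in siB7-H3 and 568 in siCont. Its log2 differences were -0.51 in siPF and -0.22 in siB7-H3, short of 2-fold.

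As a yardstick, genes were divided into 10 equal level bins by mean log2 intensity, and the SD of the log2 difference was taken over all genes of the same bin. This SD is the spread between genes, not between replicates, and contains any real differences. For ASS1 it was 0.31 in siPF, and ASS1 was the lowest of the 1977 genes of its bin. For ASL it was 0.38 in siPF and 0.33 in siB7-H3, so the difference of ASL exceeded it in siPF and not in siB7-H3.

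SLC7A1, the carrier CAT-1 that brings arginine, lysine and ornithine into the cell, was nearly level on the 3 arrays at its bright probe sets. The brightest had 7502 in siPF, 8290 in siB7-H3 and 7680 in siCont, with log2 differences of -0.034 and 0.11. The next had 795 in siPF, 892 in siB7-H3 and 758 in siCont. At 2 dimmer probe sets siPF and siB7-H3 were both below siCont, by log2 differences of -0.41 and -0.49 in siPF and -0.35 and -0.20 in siB7-H3. The fifth was under the 60th percentile on every array, with 19.1 in siPF, 9.70 in siB7-H3 and 57.8 in siCont. Its log2 differences of -1.60 and -2.58 rest on dim values, and no brighter probe set of SLC7A1 was past 2-fold.

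ARG2, the mitochondrial arginase, gave opposite directions at its 2 probe sets. The brighter one had 225 in siPF, 185 in siB7-H3 and 254 in siCont, and the other had 183 in siPF, 185 in siB7-H3 and 129 in siCont. The log2 differences were -0.17 and 0.50 in siPF, and -0.45 and 0.51 in siB7-H3, so no direction can be given for ARG2. Both probe sets were near the 60th percentile of their arrays.

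OAT and ODC1, which use ornithine, were bright and differed little between the arrays. OAT, the aminotransferase that converts ornithine towards glutamate and proline, had 6424 in siPF, 6832 in siB7-H3 and 6708 in siCont, log2 differences of -0.062 and 0.026. ODC1, which makes putrescine as the first step of polyamine synthesis, had 26638 in siPF, 30456 in siB7-H3 and 29101 in siCont, log2 differences of -0.13 and 0.066. For both genes these were within the SD of 0.27 in siPF and 0.24 in siB7-H3 over their bin. The brightest genes as a group were above siCont on both knockdown arrays. The 106 genes whose mean log2 intensity was at least that of ODC1 less 0.5 had a median log2 difference of 0.26 in siPF and 0.23 in siB7-H3. With quantile normalization, which makes the 3 distributions equal, ODC1 was at -0.40 in siPF and -0.20 in siB7-H3, so its direction in siB7-H3 turned with the scaling. In siPF that value was beyond the bin SD of 0.27, which was taken without this normalization.

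**Figure D1:**
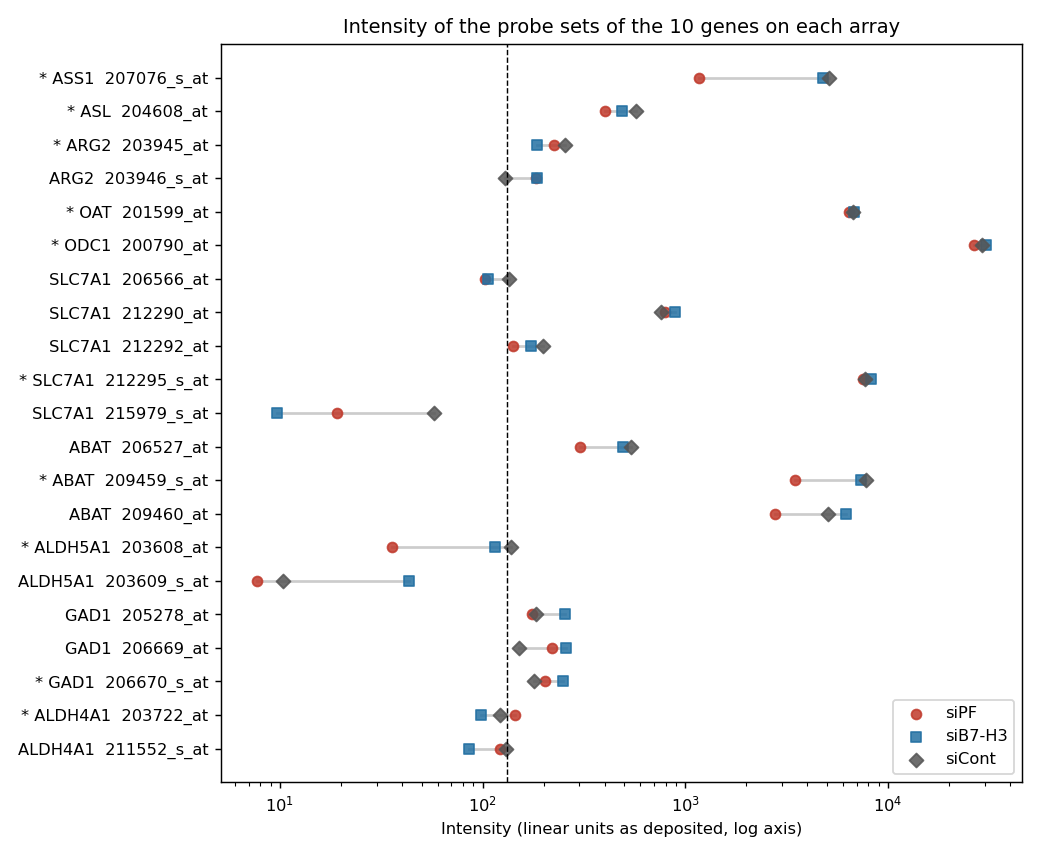
Intensity of each probe set of the 10 genes on the siPF, siB7-H3 and siCont arrays, 1 point per array, on a log axis, with an asterisk at the probe set that represents the gene and a dashed line at the 60th percentile of siCont (132). ASS1, the 3 probe sets of ABAT and the brighter probe set of ALDH5A1 have siPF apart to the left, while OAT, ODC1 and the bright probe sets of SLC7A1 have the 3 arrays close together.

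In the GABA branch, ABAT had been chosen for its lower level in siPF, ALDH5A1 was dim, and the probe sets of GAD1 went both ways in siPF. ABAT, the GABA transaminase, which turns GABA into succinic semialdehyde, was lower in siPF than on the other 2 arrays at all 3 of its probe sets. The brightest had 3487 in siPF, 7343 in siB7-H3 and 7761 in siCont, and its log2 difference was -1.15 in siPF and -0.080 in siB7-H3. Another had 2765 in siPF, 6195 in siB7-H3 and 5057 in siCont, and the dimmest had 302 in siPF, 495 in siB7-H3 and 539 in siCont. The last 2 gave log2 differences of -0.87 and -0.83 in siPF, so ABAT was past 2-fold at 1 of 3 probe sets. In siB7-H3 the probe sets lay between -0.12 and 0.29, on both sides of siCont. ABAT was the 2nd lowest of the 1978 genes of its bin in siPF, where the SD was 0.27.

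ALDH5A1, the succinic semialdehyde dehydrogenase, which makes succinate in the step after ABAT, was dim. Its brighter probe set had 35.9 in siPF, 115 in siB7-H3 and 138 in siCont, log2 differences of -1.94 and -0.25. The siCont value was barely above the 60th percentile of that array (132), and the siPF value was far below that of siPF (137). When lower values were raised to the 60th percentile of their array, the difference in siPF was -0.0028, and a gene this dim cannot stay past 2-fold under such a floor. The other probe set had 7.72 in siPF, 43.1 in siB7-H3 and 10.3 in siCont, which gave -0.42 in siPF and 2.06 in siB7-H3. In its bin, 4.80% of genes were at least 2-fold lower in siPF, and ALDH5A1 was the 4th lowest of 1978.

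GAD1, the glutamate decarboxylase GAD67, was highest in siB7-H3 at all 3 probe sets. The representative one had 203 in siPF, 250.1 in siB7-H3 and 179 in siCont. The others had 176 and 219 in siPF, 256 and 258 in siB7-H3, and 183 and 152 in siCont. The log2 differences were 0.48, 0.48 and 0.77 in siB7-H3, and 0.18, -0.060 and 0.53 in siPF. In siB7-H3 the representative value exceeded the SD of 0.38 over its bin, and none of the values reached 2-fold. ALDH4A1, which oxidises pyrroline-5-carboxylate to glutamate in proline and ornithine breakdown, was dim. Its probe sets had 145 and 122 in siPF, 98.0 and 85.3 in siB7-H3, and 121 and 130 in siCont. Both were lowest in siB7-H3, at log2 differences of -0.31 and -0.61, and they went both ways in siPF, at 0.25 and -0.098.

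**Figure D2:**
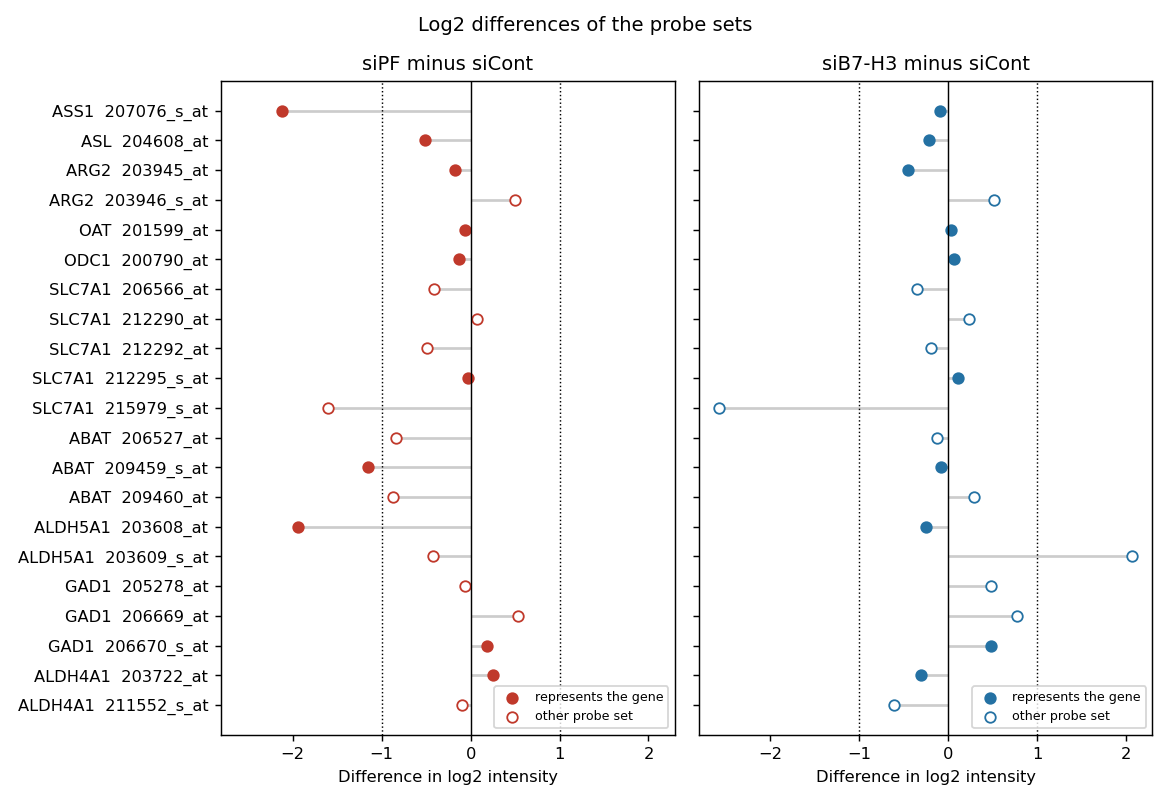
Log2 difference to siCont of each probe set of the 10 genes in siPF (left) and siB7-H3 (right), with filled points for the probe set that represents the gene and dotted lines at 2-fold. In siPF, 4 of 21 probe sets are past 2-fold lower (1 each of ASS1, ABAT, ALDH5A1 and SLC7A1), and in siB7-H3 the 2 past 2-fold are the dimmest ones of SLC7A1 and ALDH5A1.

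Counted by gene, 3 of the 10 genes were at least 2-fold lower in siPF (ASS1, ABAT and ALDH5A1) and 0 were at least 2-fold higher. Among the 19775 genes measured, 9.39% were lower by this threshold in siPF and 9.72% were higher. Most genes past 2-fold were dim, so a level rule was also used, which asked that the brighter array of a pair be at or over the 60th percentile of all probe sets on that array. All 10 genes passed it in siPF, ALDH5A1 and ALDH4A1 by a narrow margin, and of the 10494 genes that passed, 1.11% were lower by this threshold and 1.38% were higher. Since ASS1 and ABAT were chosen from this contrast, nothing is read from the count of 3. Of the other 8 genes, 1 was at least 2-fold lower, ALDH5A1. It met the level rule only through siCont, the array where it was highest, so nothing is read from it either. In siB7-H3, 0 of the 10 genes were past 2-fold in either direction, against 9.45% of all genes lower and 8.75% higher. In siB7-H3, 10475 genes including 9 of the 10 met the level rule, and of these 0.821% were lower and 0.792% higher.

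The median log2 difference of the 10 genes was -0.15 in siPF and -0.089 in siB7-H3, against 0.017 and 0.0045 over all genes. Without ASS1 and ABAT it was -0.095 in siPF and -0.097 in siB7-H3. Under the alternatives run, the siPF median of the 10 genes lay between -0.31 and -0.095. The siB7-H3 median lay between -0.14 and 0.028, so it has no settled direction. In siPF, 4 of the 10 genes differed from siCont by more than the SD of their bin, all of them lower, against 26.4% of all genes (12.6% lower and 13.8% higher). ASS1 and ABAT are among the 4, and of the other 8 genes 2 did, ASL and ALDH5A1. In siB7-H3, 2 of the 10 did, ARG2 and GAD1, against 27.2% of all genes. The second probe set of ARG2 went the other way. The siPF array was the lowest of the 3 for 7 of the 10 genes, and for 5 of the 8 other than ASS1 and ABAT, against 31.9% of all genes. Of these 5, OAT, ODC1 and SLC7A1 differed from siCont by less than the SD of their bin, and ALDH5A1 was dim. The remaining gene, ASL, differed by more than that SD. Whether these genes share a decrease was not tested. Both comparisons use the same siCont array. Set directly against siB7-H3, siPF had log2 differences of -2.02 for ASS1, -1.07 for ABAT and -1.68 for ALDH5A1, and the other 7 genes lay between -0.30 and 0.56.

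**Figure D3:**
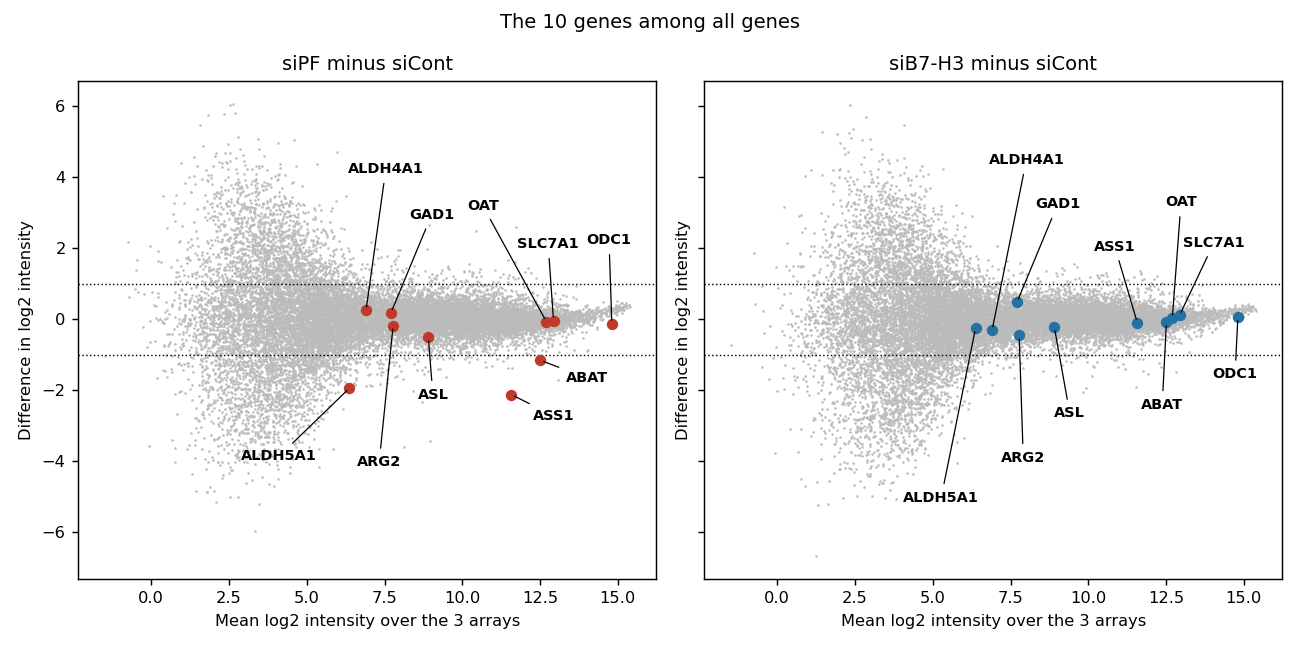
Log2 difference to siCont against the mean log2 intensity over the 3 arrays for all 19775 genes (grey, 1 point per gene), in siPF (left) and siB7-H3 (right), with the 10 genes in colour and dotted lines at 2-fold. ASS1 and ABAT lie below the cloud of bright genes in siPF, ALDH5A1 lies at the edge of the wide cloud of dim genes, and in siB7-H3 all 10 genes lie within 2-fold.

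Genes around these enzymes were examined by lists, of which 101 of 110 genes were measured. Of the 64 that passed the level rule in siPF, 40 (62.5%) were below and 24 above siCont, against 47.5% of all genes below under the same rule, and 1 was past 2-fold. It was SLC7A2, the carrier CAT-2 for arginine and other cationic amino acids, with 700.4 in siPF, 593 in siB7-H3 and 324 in siCont. Its log2 differences were 1.11 in siPF and 0.87 in siB7-H3, and its 2 dim probe sets, under 63 on all arrays, gave -0.037 and -0.61 in siPF. Of the 65 that passed in siB7-H3, 30 (46.2%) were below and 35 above siCont, against 47.2% of all genes below, and 0 were past 2-fold. The medians of the lists given below are small or rest on dim genes, and most of them turned sign under at least 1 alternative.

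Of the urea cycle and its carriers, 4 of 8 genes passed the level rule in siPF, with log2 differences between -0.25 and 0.44, and in siB7-H3 the same number lay between 0.062 and 0.40. SLC25A13, the aspartate-glutamate carrier citrin, was the brightest, with 2511 in siPF, 2865 in siB7-H3 and 2639 in siCont. The list's median over all 8 genes was -0.16 in siPF and -0.034 in siB7-H3, and both turned positive without probe sets ending in _s_at or _x_at (0.066 in siPF and 0.090 in siB7-H3). Of 18 genes of arginine use, sensing and transport, 15 passed. In siPF, 9 of these lay below siCont and 6 above it, and in siB7-H3 the split was 7 and 8. The brightest was DDAH1, which breaks down methylated arginines, with 10698 in siPF, 11902 in siB7-H3 and 11538 in siCont, whereas a dimmer probe set of it had 482 in siPF, 316 in siB7-H3 and 680.0 in siCont. The medians over the 18 genes were -0.020 in siPF and 0.040 in siB7-H3.

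Among 19 genes of polyamine synthesis, breakdown and use, 18 were bright enough for the level rule, of which 11 were below siCont and 7 above it in siPF, against 10 and 8 in siB7-H3. The values ran between -0.50 and 0.49 in siPF and between -0.52 and 0.37 in siB7-H3, so none of them was past 2-fold. OAZ1, the antizyme that targets ornithine decarboxylase for degradation, was the brightest, with 22376 in siPF, 22601 in siB7-H3 and 20670 in siCont. Over the 19 genes the siPF median was -0.073 and the siB7-H3 median -0.11, and over the 14 left without probe sets ending in _s_at or _x_at both were positive, at 0.18 in siPF and 0.070 in siB7-H3. Of 10 measured genes of proline and glutamate interconversion, 7 passed in siPF and lay between -0.21 and 0.033, and 8 passed in siB7-H3 and lay between -0.27 and 0.27. The aspartate aminotransferase GOT2 was the brightest, with 6395 in siPF, 6103 in siB7-H3 and 6588 in siCont, and the median over all 10 was -0.017 in siPF and -0.060 in siB7-H3.

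Most other genes of GABA metabolism and signalling were dim. Of 10 measured genes of GABA synthesis, breakdown and transport, 2 passed the level rule, AKR7A2 and ALDH9A1. ALDH9A1, an aldehyde dehydrogenase that can form GABA from a product of putrescine, had 4459 in siPF, 4830 in siB7-H3 and 2999 in siCont, log2 differences of 0.57 and 0.69. AKR7A2, which reduces succinic semialdehyde, was the brightest of the list by mean log2 intensity over the 3 arrays, though below ALDH9A1 in siPF and siB7-H3, with 4311 in siPF, 3882 in siB7-H3 and 4377 in siCont. The medians of all 10 genes, -0.30 in siPF and -0.50 in siB7-H3, rest mostly on dim values. With dim values raised to the 60th percentile they were 0.052 in siPF and 0.024 in siB7-H3, as over all genes. Those values are the differences between the floors themselves, so the change of sign was fixed in advance. Of 16 measured GABA receptor genes, 1 passed, GABBR1, a subunit of the GABA-B receptor, with 395 in siPF, 440.1 in siB7-H3 and 348 in siCont, while its dimmer probe set gave log2 differences of -0.43 and -0.10. Over the 16 receptor genes the siPF median was -0.35 and the siB7-H3 median -0.73. These also rest on dim values: with a pseudocount of 16 they were -0.15 in siPF and -0.17 in siB7-H3, and with the floor 0.052 in siPF and 0.024 in siB7-H3.

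Genes of the amino acid response, the targets of ATF4 that cells switch on when amino acids are short, were close to siCont in both knockdowns. The level rule was passed by 17 of 20 genes. In siPF, 11 of these lay below siCont and 6 above it, and in siB7-H3 the split was 8 and 9. The values ran between -0.48 and 0.40 in siPF and between -0.25 and 0.22 in siB7-H3. The brightest was SHMT2, a mitochondrial enzyme of serine and glycine metabolism, with 33154 in siPF, 30925 in siB7-H3 and 28598 in siCont, although another of its probe sets was below siCont in siB7-H3 (a log2 difference of -0.29). The median over all 20 genes was -0.088 in siPF and -0.028 in siB7-H3.

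**Figure D4:**
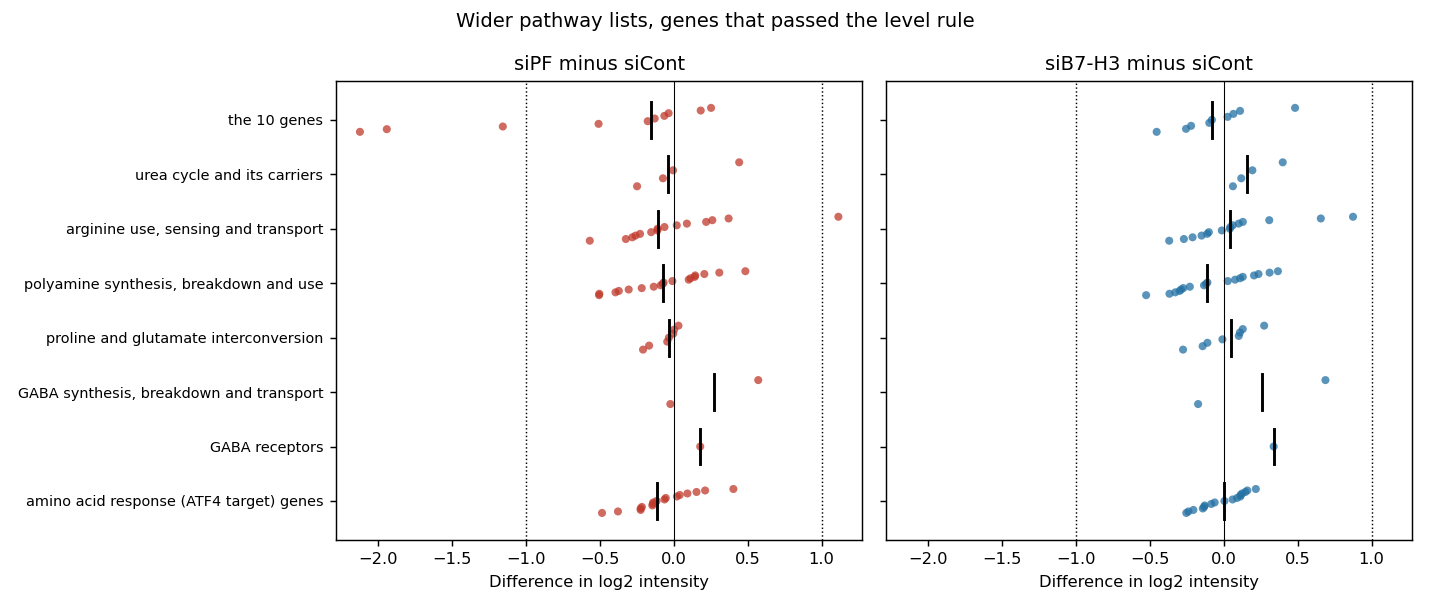
Log2 difference to siCont in siPF (left) and siB7-H3 (right) for each list's genes above the level rule, 1 point per gene, with a black bar at the list's median over these genes and dotted lines at 2-fold. Past 2-fold are ASS1, ALDH5A1 and ABAT among the 10 genes and SLC7A2 among arginine transport genes, all in siPF.

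Likeness to ASS1 and ABAT was measured as the distance between the 2 log2 differences of a gene and theirs, over the 10602 genes that reached the 60th percentile on any array. With 3 arrays this describes the same arrays and no more. Nearest to ASS1 was C8orf34, with 131 in siPF, 558 in siB7-H3 and 528 in siCont. ALDH5A1 came next, but it was dim and reached the 60th percentile in siCont only. Then came TMCO4, with 140 in siPF, 759 in siB7-H3 and 696 in siCont. All of these were brighter in siB7-H3 and siCont than in siPF, which follows from choosing them by likeness to ASS1 and supports nothing. Nearest to ABAT was the zinc finger gene ZNF880, with 307 in siPF, 624 in siB7-H3 and 671 in siCont. ARRB1, the gene of beta-arrestin 1, had 1477 in siPF, 3264 in siB7-H3 and 3351 in siCont. The third was EIF3J-DT, with 120.3 in siPF, 256 in siB7-H3 and 277 in siCont.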

How the data were processed

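Total RNA of Rh-30 cells was converted to biotin-labelled cRNA and hybridized to U133 Plus 2.0 GeneChips. Per the labels, the authors used Affymetrix Expression Console 1.4.1, and the deposited table holds a linear intensity for each probe set on each array. How probes were summarized is not given in the sources used here. Values were converted to log2 as they stood, and siCont was subtracted. Gene names came from the platform annotation, updated through RefSeq. Of the probe sets, 41091 had 1 gene, 1801 several, 11721 none, and 62 were controls. A gene was represented by its probe set of highest mean log2 intensity. Genes were called higher or lower from 2-fold on (a log2 difference of 1). The genes named were the 10 with every probe set and the brightest of each list. Genes of the lists past 2-fold under the level rule and the 3 genes nearest to ASS1 and to ABAT were also named. CD276, FOXO1 and PAX3 served as knockdown checks, beside the markers of muscle and other cells. Others were named after their values were seen. The 10 genes and the lists were chosen with earlier results of these data known. With 1 array per condition the number of arrays limits the precision. Alternatives covered the choice of probe set, scaling, low values, the threshold and the reference array, the last chosen after seeing the data. Python 3.11.15, numpy 2.4.6, pandas 2.3.3 and matplotlib 3.10.9 were used, and simulated data were used to test the code.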

Additional observations from a re-analysis of the deposited data

How the results depend on the processing

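Leaving out probe sets ending in _s_at or _x_at moved the count of the 10 genes at least 2-fold lower in siPF to 1 (ALDH5A1), since ASS1 has no other probe set and ABAT was then at -0.87. Under the other alternatives this count was 2 or 3: it was 2 with each gene's median over its probe sets, where ABAT was lost, and with the floor at the 60th percentile, where ALDH5A1 was lost. The counts of genes at least 2-fold higher in siPF, and lower or higher in siB7-H3, were 0 under all alternatives run. Of 170 recomputed single-gene differences, 26 moved by at least the SD of the gene's level bin, and none of the differences past 2-fold at the representative probe set changed sign. In siB7-H3, where the representative probe sets of SLC7A1 and ALDH5A1 were within 2-fold, a dim probe set of each was past it with the opposite sign (-2.58 and 2.06). Of 112 recomputed medians of the 10 genes and the wider lists, 25 moved by over 0.1, and 12 of the 16 medians turned sign under at least 1 alternative. For both GABA lists the only change of sign came with the floor, where it was fixed in advance. No scaling moved the median of all genes by over 0.1. No paired analysis was possible because each condition had 1 array. Dim probe sets, those of ALDH5A1 and ALDH4A1 and the fifth of SLC7A1, limit what can be said of these genes.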
